A study of Mus musculus with 12 samples.

Results

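H13 and Blcap are mouse genes on chromosome 2 that each carry an imprinted gene inside them, Mcts2 in H13 and Nnat in Blcap. H13 (ENSMUSG00000019188) spans chr2:152669461-152708670 on the plus strand, and Blcap (ENSMUSG00000067787) spans chr2:157556362-157571274 on the minus strand (GRCm38, GENCODE M21). Their regions were taken as every entry of the methylation tables that carried the identifier of either gene (exons, introns, promoter and untranslated regions, UTRs, each pooled to 1 value per gene), together with the CpG islands and island shores that lay inside the 2 gene spans. This gave 18 of the 176831 regions listed in the series, 7 for H13 and 11 for Blcap, and 17 of the 18 had a level in all 12 libraries. H13 had no promoter or 5′ UTR entry. Some of these regions overlap, since islands and shores lie within introns or UTRs, so counts of regions are not counts of independent sites.

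Methylation was measured in 12 libraries by reduced representation bisulfite sequencing, in which MspI cuts DNA at CCGG so that CpG-rich fragments are enriched, and bisulfite conversion then separates methylated from unmethylated cytosines. The 6 groups held 2 libraries each, and all were labelled as strain C57BL6. Stem cells came from female ES cell lines (ESCs) or from parthenogenetic lines (pESCs), which are made from artificially activated oocytes and so carry no paternal genome. Germ cells were primordial germ cells (PGCs) at embryonic days 9.5 and 12.5 (E9.5 and E12.5) or PGC-like cells induced in culture from ESCs (ESC-PGCLCs) or from pESCs (pESC-PGCLCs). Induction passed through 2 days with activin A, bFGF and knockout serum replacement, giving epiblast-like cells, and 4 days with BMP4, SCF, EGF and LIF. According to the study's methods the PGCs came from female embryos and were sorted, and the PGCLCs were sorted for SSEA1 and CD61. Only methylation levels were used here, so cell identity was not checked here by the expression of marker genes. The study reports from RNA-seq that early PGC marker genes had a similar pattern in PGCLCs of both origins and in PGCs. The study calls the libraries of a group biological replicates. Whether they came from separate cell lines, cultures or litters is not given in the sources used here, and the tests measure the spread between these libraries. The mean level over the 133311 regions common to all libraries lay between 21.3% and 36.5%, the lower bound in ESC replicate 2 and the upper in E9.5 PGC replicate 1. The ESC libraries differed most from each other, at 25.9% and 21.3%, and by more than 10 percentage points in 24.5% of the regions.

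Imprinted genes are expressed from 1 parental copy, because a CpG-rich control region is methylated in the egg or in the sperm and keeps that mark on the same parental copy after fertilisation. At both Mcts2 and Nnat the promoter island is known to receive its mark in the growing oocyte, so that the maternal copy is methylated and the inner gene is transcribed from the paternal copy. The host H13, which encodes the intramembrane protease signal peptide peptidase, makes shorter transcripts that end upstream of Mcts2 on the copy where the island is unmethylated, and full-length transcripts on the other. Blcap encodes a small, conserved protein linked to cell death and is transcribed towards and across Nnat. Mcts2 is a retrocopy of a translation factor gene, and Nnat encodes neuronatin, a small membrane protein of the endoplasmic reticulum. PGCs lose these marks as they move to and settle in the gonad, and the female germ line sets them again in the oocyte.

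4 CpG islands lay inside the hosts. The Mcts2 island (chr2:152686810-152687230, 421 bases, 44 CpG sites, 9 MspI sites) covered the Mcts2 start, and a short annotated H13 transcript ended 109 bases before it. The Nnat island (chr2:157560051-157560581, 531 bases, 51 CpG sites, 4 MspI sites) covered the Nnat start, and a Blcap transcript of the opposite strand started 44 bases away from the island's first base. Another island (chr2:157565925-157566396, 472 bases, 49 CpG sites, 7 MspI sites) held the start of the transcript Blcap-201. The last (chr2:152707612-152707865, 254 bases, 29 CpG sites, 3 MspI sites) lay in the last exon of H13 and was covered by its 3′ UTR. The Mcts2, Nnat and Blcap-201 islands are shown outside UTRs because they set the methylated islands of the inner genes beside the unmethylated island of a host. Sequences are from the plus strand of RefSeq GRCm38, and capitals mark CpG sites. Each island had 1 level per library, so which of these sites were read is not known. The stretches lie at chr2:152686810-152687034, just before the Mcts2 start, at chr2:157560282-157560581, inside Nnat past its 5′ UTR, and at chr2:157565925-157566219, inside Blcap.
Mcts2 island: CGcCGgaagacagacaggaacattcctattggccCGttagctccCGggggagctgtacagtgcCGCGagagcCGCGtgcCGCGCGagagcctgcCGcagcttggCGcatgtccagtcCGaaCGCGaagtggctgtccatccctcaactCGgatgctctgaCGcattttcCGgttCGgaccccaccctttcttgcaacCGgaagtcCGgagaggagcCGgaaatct
Nnat island: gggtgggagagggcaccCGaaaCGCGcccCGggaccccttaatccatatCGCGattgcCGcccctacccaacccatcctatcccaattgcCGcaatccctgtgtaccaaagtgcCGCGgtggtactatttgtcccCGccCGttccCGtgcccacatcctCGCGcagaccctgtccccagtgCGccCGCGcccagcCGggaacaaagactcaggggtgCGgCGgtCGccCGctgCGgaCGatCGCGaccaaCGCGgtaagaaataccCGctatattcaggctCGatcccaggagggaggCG
Blcap-201 island: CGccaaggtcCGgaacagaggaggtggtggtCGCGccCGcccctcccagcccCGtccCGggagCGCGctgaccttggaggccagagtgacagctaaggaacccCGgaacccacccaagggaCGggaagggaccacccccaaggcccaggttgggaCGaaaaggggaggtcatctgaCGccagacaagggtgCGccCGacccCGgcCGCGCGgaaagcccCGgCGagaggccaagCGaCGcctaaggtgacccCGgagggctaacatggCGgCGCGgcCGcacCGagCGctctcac
The hexamer TGCCGC, the core of the methylated motif bound by the imprint-protecting zinc-finger protein ZFP57, was counted on both strands. In a 300-base window centred on each island it occurred 2 times for the Mcts2 island, 3 times for the Nnat island and 1 time each for the Blcap-201 and last-exon islands. Over its whole length the Mcts2 island held 3 matches and the Nnat island 4. Of the windows of 14559 islands, 32.7% held at least 1 match, 7.25% at least 2 and 1.53% at least 3. A match describes these letters only, and binding was not measured.

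The Mcts2 island was nearly unmethylated in both kinds of stem cell and 58.4% methylated at E9.5. Its level was 1.55% and 2.97% in the ESC replicates, 5.996% and 4.74% in pESCs, 58.7% and 58.2% in E9.5 PGCs, 33.8% and 37.6% in E12.5 PGCs, 38.7% in both ESC-PGCLC replicates, and, in the pESC-PGCLC pair, 29.97% and 33.8%. From lowest to highest the order of the group means was ESC (2.26%), pESC (5.37%), pESC-PGCLC (31.9%), E12.5 PGC (35.7%), ESC-PGCLC (38.7%) and E9.5 PGC (58.4%). No neighbours in this order overlapped, but pESC-PGCLCs and E12.5 PGCs were only 0.034 percentage points apart at their nearest replicates, and E12.5 PGCs and ESC-PGCLCs 1.05 points apart.

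The Nnat island followed the same broad course from a higher stem-cell level. It was 15.1% and 14.4% methylated in ESCs, 25.5% and 33.0% in pESCs, 64.4% and 61.3% in E9.5 PGCs, 37.6% and 37.8% in E12.5 PGCs, 43.3% and 45.3% in ESC-PGCLCs, and, in the pESC-PGCLC pair, 40.8% and 39.9%. The order of means was ESC (14.8%), pESC (29.2%), E12.5 PGC (37.7%), pESC-PGCLC (40.4%), ESC-PGCLC (44.3%) and E9.5 PGC (62.9%). Replicates of neighbouring groups did not overlap here either, the smallest gap being 2.14 points between E12.5 PGCs and pESC-PGCLCs. In ESCs, 3.86% of the 13715 islands with a level in all libraries were as methylated as the Nnat island or more, against 26.9% for the Mcts2 island.

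**Figure D1:**
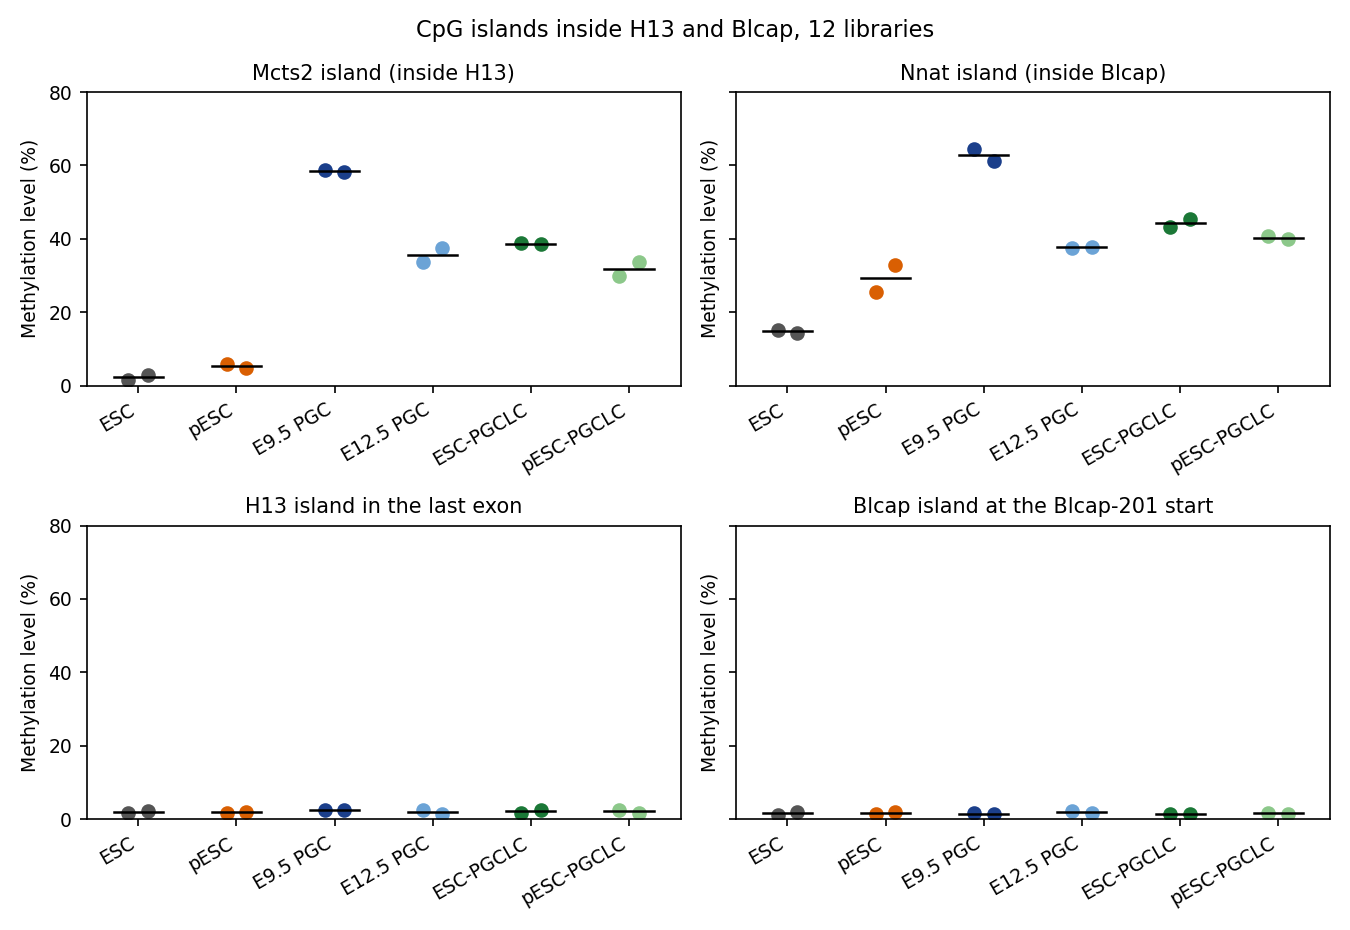
Methylation level (%) of the 4 CpG islands inside H13 and Blcap, with 1 point per library, a bar at the mean of 2 libraries and the 6 groups along the x axis. The Mcts2 and Nnat islands reach 58.4% and 62.9% in E9.5 PGCs, while the last-exon island of H13 and the Blcap-201 island stay under 3% in every library.

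The other islands of the hosts stayed unmethylated throughout. The Blcap-201 island lay between 1.27% and 2.17%, and the island in the last exon of H13 between 1.44% and 2.61%. The shores on either side of the Blcap-201 island reached at most 7.62% and 2.66%. The shore next to the last-exon island of H13 (as deposited, chr2:152705610-152707610), which lies in the same 3′ UTR, did change. It was 8.28% and 9.17% methylated in ESCs, 10.2% and 11.4% in pESCs, 58.8% and 57.6% at E9.5, 26.9% and 27.5% at E12.5, 42.5% and 40.7% in ESC-PGCLCs, and, in the pESC-PGCLC pair, 33.9% and 31.8%. High E9.5 levels in H13 were thus seen at this shore as well as at the Mcts2 island. The shore near the H13 start (chr2:152669832-152671833) was 45.5% and 48.8% methylated at E9.5, against 21.6% and 19.5% at E12.5, and its PGCLC replicates were far apart at 23.3% and 37.8% for ESC-PGCLCs and 30.2% and 20.1% for pESC-PGCLCs.

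**Figure D2:**
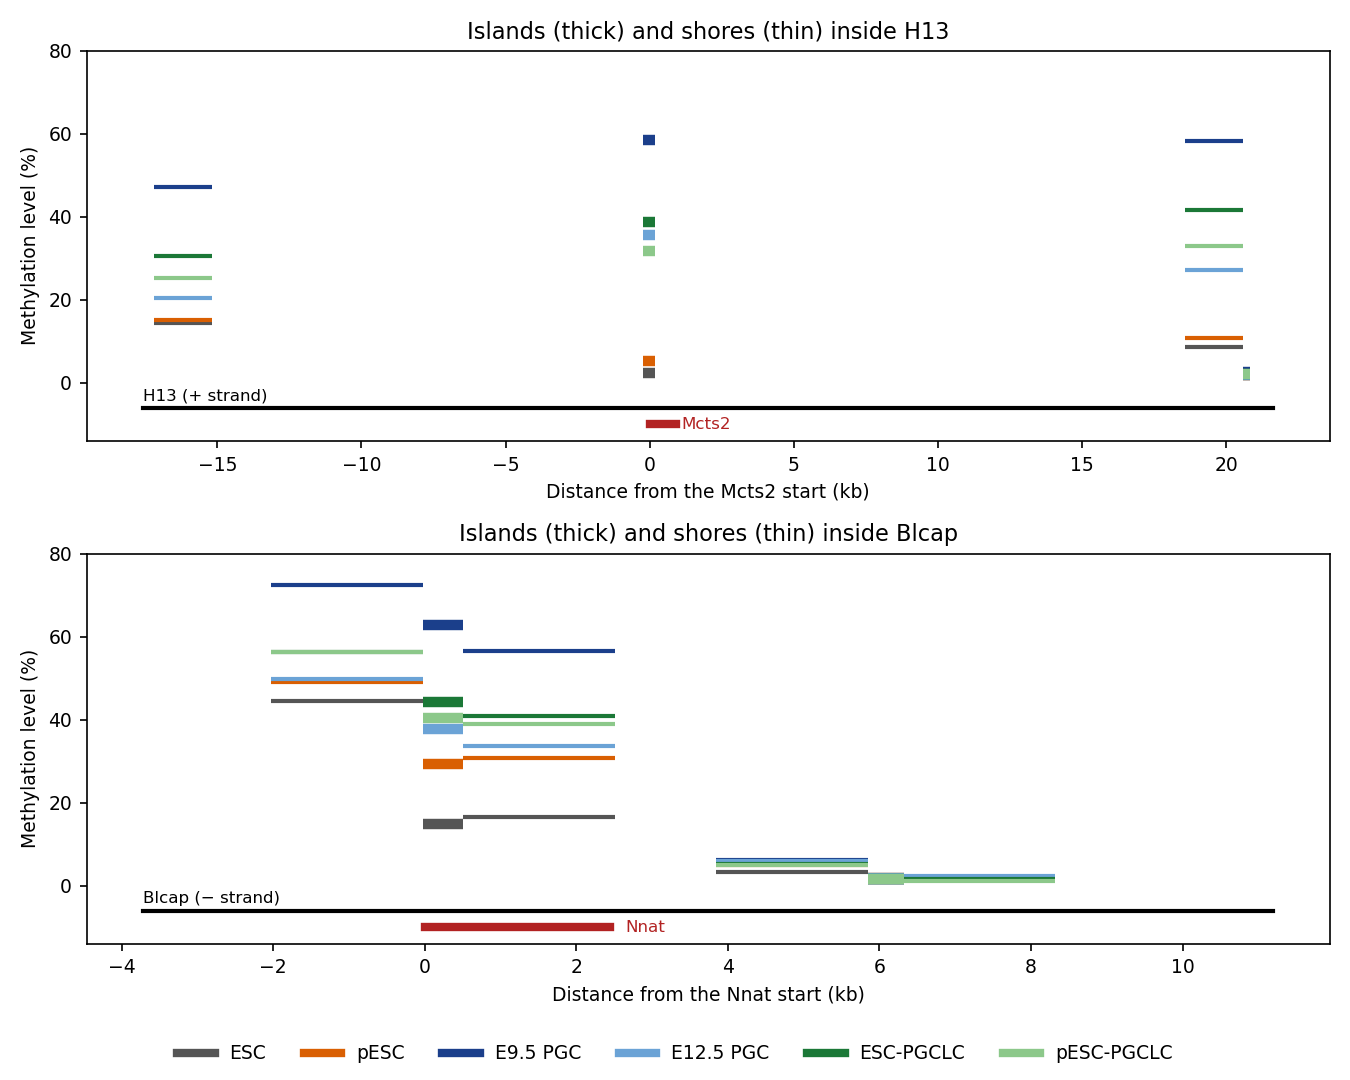
Mean methylation level (%, 2 libraries) of the islands (thick bars) and shores (thin bars) inside each host, against distance in kb from the start of Mcts2 (upper) or Nnat (lower), with the spans of the genes drawn underneath. Bars at the same level cover each other. The Mcts2 and Nnat islands rise to 58.4% and 62.9% at E9.5, and the island and shores around the Blcap-201 start stay near 0.

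The entries pooled over each host followed a similar course. H13 introns went from 10.3% and 11.9% in ESCs and 13.9% and 15.3% in pESCs to 62.9% and 63.6% at E9.5, and then to 37.1% and 39.97% at E12.5. H13 exons (3.92% and 6.24% in ESCs, 40.2% and 38.1% at E9.5) and the H13 3′ UTR (4.07% and 5.87%, then 36.0% and 32.3%) were lower at each stage. Blcap introns, which contain Nnat, were 9.50% and 10.3% methylated in ESCs, 16.3% and 22.3% in pESCs, and 46.2% and 46.4% in E9.5 PGCs. The Blcap promoter entry was 13.5% and 11.6% in ESCs, 18.2% and 24.7% in pESCs, and 44.5% and 50.5% at E9.5, unlike the island at the Blcap-201 start. The authors' promoter definition is not given in the sources used here, so which Blcap start it covers was not determined. Blcap exons (38.7% and 22.0% in ESCs) and the Blcap 5′ UTR (39.5% and 21.9%) differed widely between the ESC replicates, as did the shore on the 5′ side of Nnat (chr2:157558049-157560049, 55.4% and 33.4%). A Blcap UTR segment (chr2:157558154-157558327) lies inside this shore, so these entries are not independent. Another (chr2:157566220-157566361) lies in the unmethylated Blcap-201 island. At the Nnat island the same ESC libraries lay close together, at 15.1% and 14.4%.

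The inner genes had 8 entries of their own, which overlap the host entries and are no separate evidence. The Mcts2 promoter was 1.66% and 3.76% methylated in ESCs and 58.8% and 61.5% at E9.5. Its exon and 5′ UTR entries held identical values, 1.37% and 2.12% in ESCs, 5.76% and 5.80% in pESCs, and 58.4% and 51.8% at E9.5. The Nnat 5′ UTR had the highest E9.5 level of the 8, at 74.2% and 71.2%, against 19.8% in both ESC replicates and 34.5% and 40.4% in pESCs. The Nnat promoter, with 43.0% and 27.1% in ESCs, had a wide ESC spread, like the shore on the 5′ side of Nnat.

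**Figure D3:**
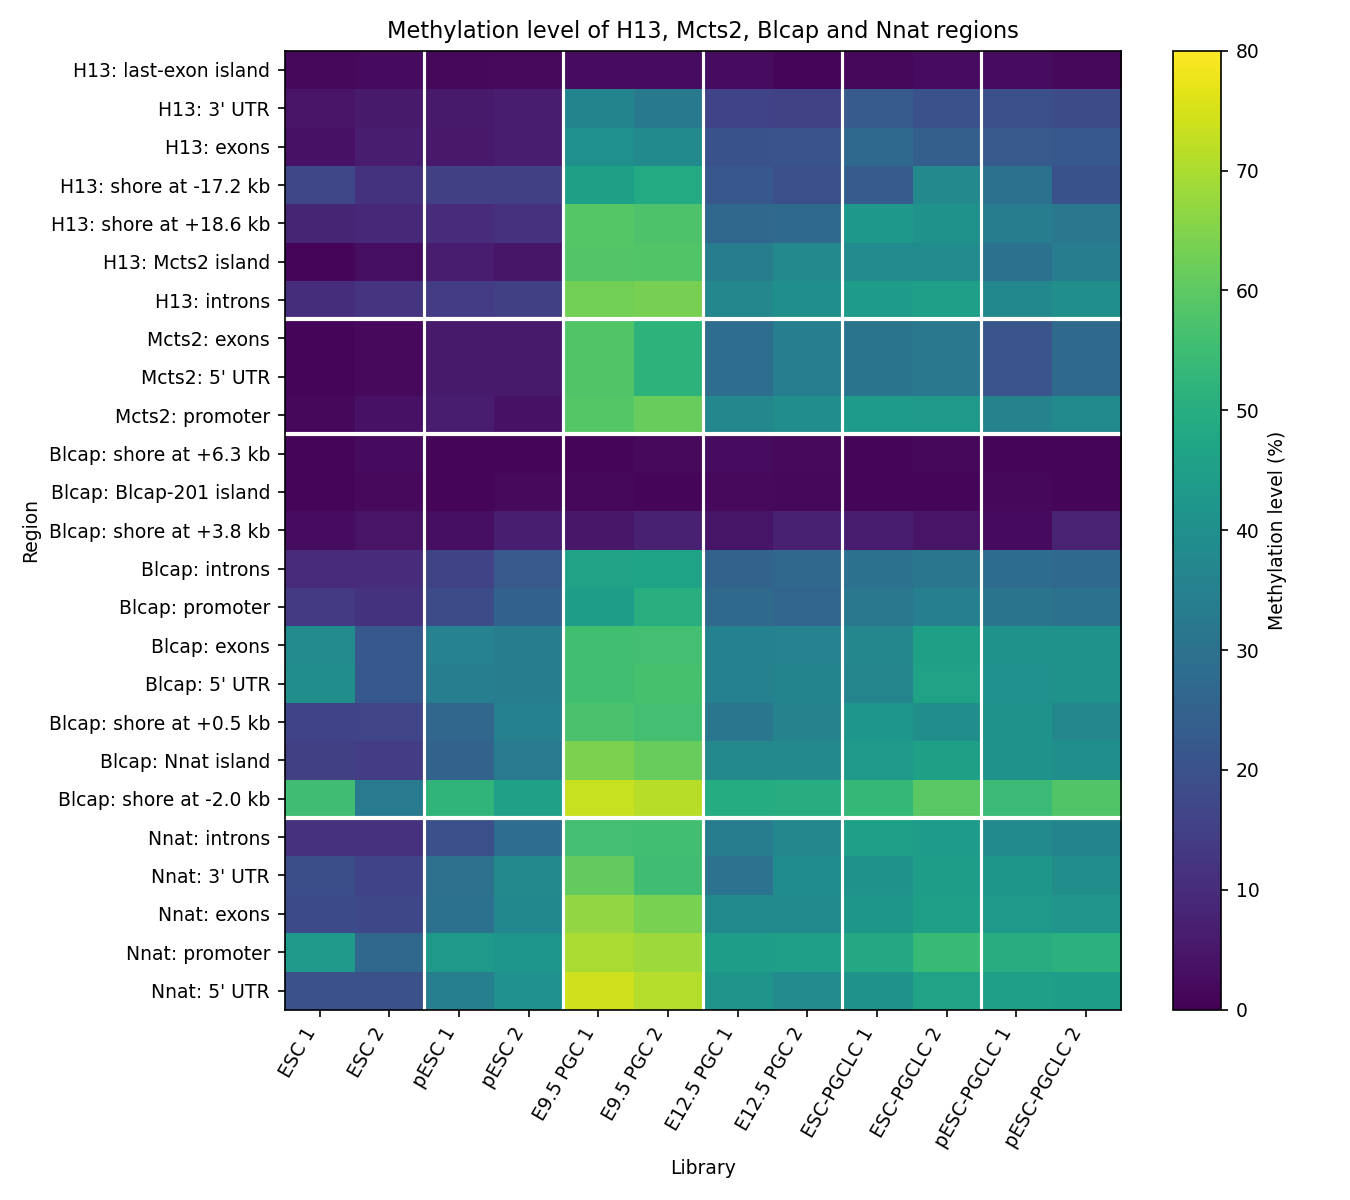
Methylation level (colour, 0 to 80%) of the 17 host regions and 8 inner-gene entries with a level in all libraries (rows, in 4 blocks for H13, Mcts2, Blcap and Nnat; shores are named by distance of their start from the Mcts2 or Nnat start) in each of the 12 libraries (columns). The E9.5 PGC columns hold the highest level of every row that reaches 10%, and 4 rows, the last-exon island of H13 and the Blcap-201 island with its shores, stay dark in all columns.

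From E9.5 to E12.5, when PGCs lose methylation, both inner-gene islands fell. The Mcts2 island dropped by 22.7 points (58.4% ± 0.36 to 35.7% ± 2.68, SD, n = 2 each; log2 odds difference -1.31, 95% interval -1.63 to -0.995, limma adjusted p = 0.00026). The Nnat island dropped by 25.2 points (62.9% ± 2.14 to 37.7% ± 0.13; log2 odds difference -1.46, interval -1.72 to -1.19, limma adjusted p = 0.000103). A region was called when its adjusted p was under 0.05 and its group means differed by at least 10 points. Of the 17 regions, 13 were called, all lower at E12.5, where 49.6% of all 137202 regions tested and 6.43% of 13799 islands were called lower. The 4 exceptions were the last-exon island of H13 and the Blcap-201 island with its shores, which started from 1.08% to 7.27%. The largest drop was at the H13 shore beside the last-exon island, which fell by 31.0 points (limma adjusted p = 7.47e-05). The other called regions differed by -26.6 to -18.3 points, the smallest change being at the H13 3′ UTR. The median over all regions was -11.5 points, and over the 717 islands with at least 50% at E9.5 it was -28.6 points (quartiles -32.8 and -24.1). Of these islands, 80.4% fell further than the Mcts2 island and 69.1% further than the Nnat island. Most of them started higher, as 667 islands were at or above the Mcts2 island at E9.5 and 627 at or above the Nnat island. The share of the 13715 islands at or above the Mcts2 island was 4.86% at E9.5 and 4.87% at E12.5. For the Nnat island it was 4.57% and 4.71%. When library medians were first set equal, here called centring, 4 of the 17 regions were called, the shore lower by 15.0 points and 3 of the 4 unmethylated regions higher by 15.4 to 16.8 points, and the differences at the Mcts2 and Nnat islands were -6.75 and -9.19 points, neither called. The calls over all regions were 0.0705% higher as deposited and 72.8% higher after centring.

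**Figure D4:**
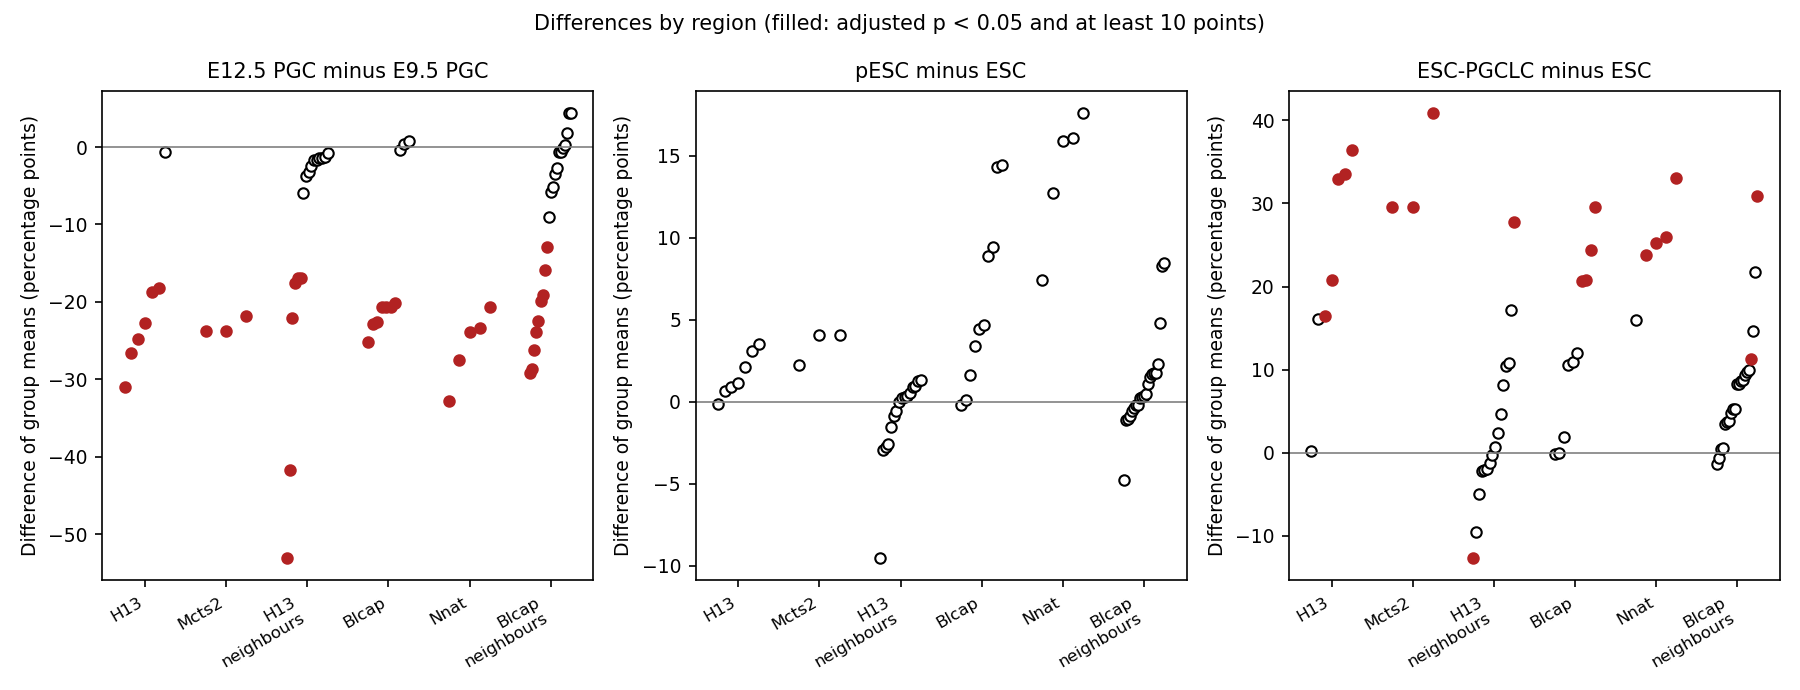
Differences of group means in percentage points for the regions of H13 and Blcap, of Mcts2 and Nnat, and of 6 neighbouring genes of each host, with 1 point per region and filled points for those called (adjusted p under 0.05 and at least 10 points). From E9.5 to E12.5, 13 of 17 host regions are called lower, no region is called between pESCs and ESCs, and 9 host regions are called higher in ESC-PGCLCs than in ESCs.

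PGCLCs of both origins were less methylated at these regions than E9.5 PGCs. Against E9.5 PGCs, ESC-PGCLCs were differed by -19.7 points at the Mcts2 island (limma adjusted p = 0.00152) and -18.6 points at the Nnat island (limma adjusted p = 0.00113). Of the 17 regions, 12 were called lower (background 29.6% of all regions, 5.71% of islands). In cells of parthenogenetic origin 13 of 17 were (background 40.2% of all regions, 6.44% of islands), with differences of -26.6 points at the Mcts2 island (adjusted p = 0.000344) and -22.5 points at the Nnat island (adjusted p = 0.000336). Among the 717 islands with at least 50% at E9.5 the medians were -19.8 points for ESC-PGCLCs and -25.9 points for pESC-PGCLCs. After centring, 1 region was called in ESC-PGCLCs, the Blcap-201 island at +10.1 points, and 5 in pESC-PGCLCs, of which 4 were lower, including the Mcts2 island at -14.5 points and the Nnat island at -10.4 points. The shore near the H13 start, with its wide PGCLC spread, separated the 2 counts: its adjusted p was 0.0715 for ESC-PGCLCs, where it was called without ESC-PGCLC replicate 2, and 0.0213 for pESC-PGCLCs, where it was not called without either E9.5 PGC replicate or without pESC-PGCLC replicate 2. The Blcap 5′ UTR was not called in ESC-PGCLCs without E9.5 PGC replicate 2. These comparisons share the E9.5 libraries.

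Against E12.5 PGCs, few regions of H13 or Blcap were called in PGCLCs. The H13 shore beside the last-exon island was the single region called in ESC-PGCLCs, higher by 14.4 points (41.6% ± 1.30 against 27.2% ± 0.46, limma adjusted p = 0.00322), where 22.2% of all regions were called higher. It was not called after centring, and without ESC-PGCLC replicate 1 the count was 3, with Blcap exons and the Blcap 5′ UTR added. At the Nnat island the difference of 6.62 points had an adjusted p of 0.0355 and missed the 10-point minimum. At the Mcts2 island it was 2.99 points (log2 odds interval -0.14 to 0.50), and -2.88 points after centring. In pESC-PGCLCs limma called 0 of 17 regions, where 7.10% of all regions were called in either direction. An unadjusted p under 0.05 was found at 3 of the 17 and at 42266 of all 137202 regions. The differences were -3.83 points at the Mcts2 island (interval -0.56 to 0.08) and 2.68 points at the Nnat island (interval -0.10 to 0.42), the latter -1.25 after centring.

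Between pESC-PGCLCs and ESC-PGCLCs, 0 of 17 regions passed in limma, with a background of 0.0948% in either direction. The unadjusted limma p was under 0.05 at 26558 of all 137202 regions and, a similar share, at 3 of the 17. All 3 were H13 regions with lower values in pESC-PGCLCs. They were the Mcts2 island at -6.83 points (limma adjusted p = 0.185), the shore beside the last-exon island at -8.74 points (adjusted p = 0.125) and the introns at -5.92 points (adjusted p = 0.193). At the Nnat island the difference was -3.94 points (log2 odds interval -0.49 to 0.03). The median over all regions was -0.95 points and over the 717 islands -5.92 points.

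The pESC and ESC comparison asks whether cells with maternal genomes only carry more of a maternal mark. No region of H13 or Blcap was called by limma, and 5 of 17 had an unadjusted p under 0.05. Over all 148012 regions the share called was 0%, and 2054 had an unadjusted p under 0.05. The smallest limma adjusted p of this fit was 0.0795, so no region passed, whatever its difference. An island of Igf2r that was 60.9 points higher in pESCs was not called either. The lack of a call is therefore no sign of equal levels. The Nnat island was 14.4 points higher in pESCs (29.2% ± 5.30 against 14.8% ± 0.51; log2 odds difference 1.19, 95% interval 0.36 to 2.03, limma unadjusted p = 0.0125, adjusted p = 1), with both pESC replicates above both ESC replicates. The shore that covers the rest of Nnat (chr2:157560581-157562582) had 26.3% and 35.3% in pESCs against 16.1% and 16.9% in ESCs, a difference of 14.3 points. Of the entries of Nnat, the 5′ UTR differed by 17.6 points, the exons by 16.1, the 3′ UTR by 15.9 and the introns by 12.7, all without overlap of the replicates. These entries overlap the island and this shore and are no separate evidence. The Nnat promoter differed by 7.41 points, and its replicates overlapped. At the Mcts2 island the difference was 3.11 points (5.37% ± 0.89 against 2.26% ± 1.00; log2 odds difference 1.04, interval 0.14 to 1.94, unadjusted p = 0.0299, adjusted p = 1), again without overlap of the replicates. The other H13 regions differed by -0.13 to 3.48 points. Whether the Nnat and Mcts2 islands differ from each other in this respect was not tested. With 2 libraries a group, replicates can fail to overlap without a group difference. The share of such regions over all regions was not counted, so the lack of overlap only describes these values.

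Among 13715 islands, 19 were at least 10 points higher in pESCs than in ESCs, or 0.139%. The Nnat island was 1 of them, and 13 belonged to a list of other genes with a maternal germline mark. This list took every island overlapping a listed gene, and whether each such island carries the mark was not checked. It had 26 islands tested between pESCs and ESCs, in 17 genes that include Peg10, Plagl1, Igf2r and Kcnq1ot1. Of these, 0 were called by limma, 13 had an unadjusted p under 0.05, and the median difference was 11.2 points. The median was -0.008 points over all regions, most of them not islands. Over the 717 islands with at least 50% at E9.5 it was -0.17 points. The list was chosen with earlier results of these data known. A list of genes with a sperm germline mark had 5 islands tested in 3 genes, of which 0 were called or had an unadjusted p under 0.05, with differences from -5.44 to 2.29 points. The 15 islands of the maternal list with at least 40% at E9.5 and a level in every library had a median of 52.6% in pESCs (3.32% to 75.4%) and 18.1% in ESCs. In pESCs only 1 of these 15, an island of Gnas at 3.32%, was lower than the Mcts2 island, and 4 were lower than the Nnat island. The other Gnas islands among the 15 had 61.2% and 58.0% in pESCs. In ESCs 6 of the 15 were lower than the Mcts2 island. The Mcts2 island thus ranked near the bottom of these islands in pESCs and in their middle in ESCs.

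**Figure D5:**
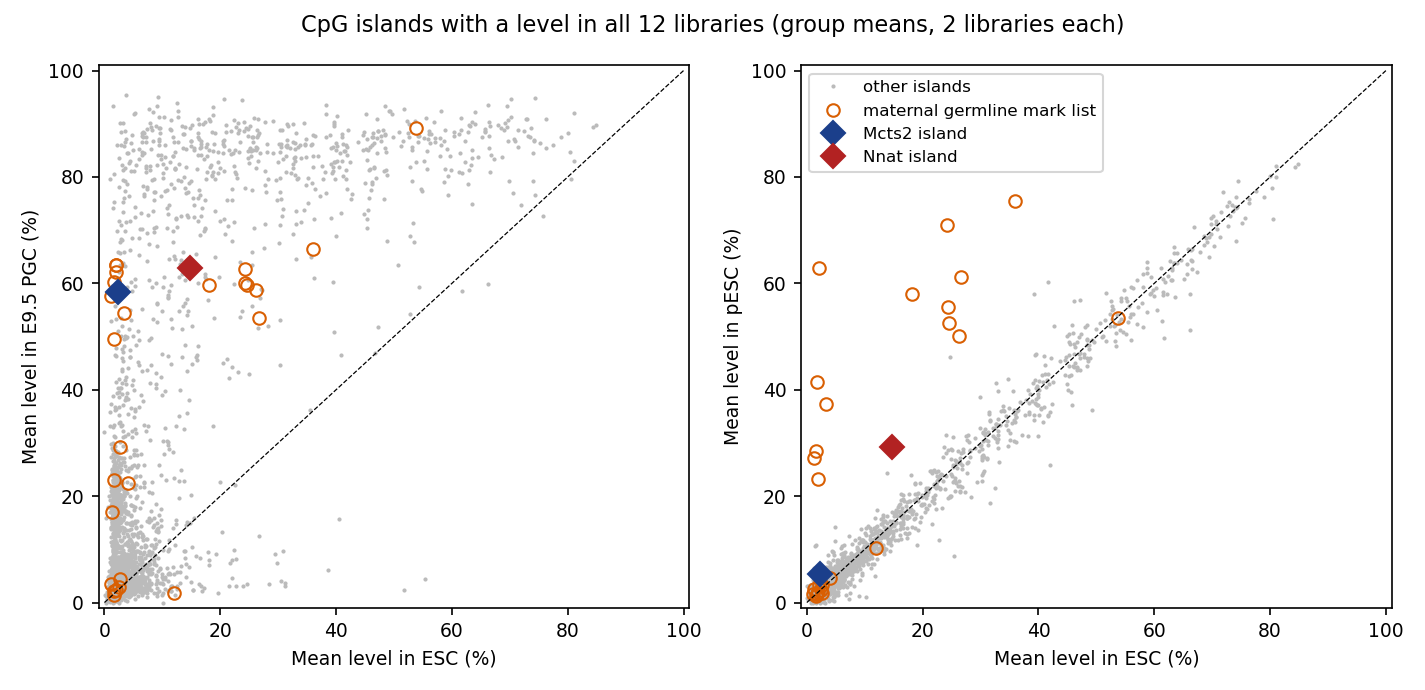
Mean level (%, 2 libraries) of each of the 13715 CpG islands in E9.5 PGCs (left) and pESCs (right) against ESCs, with the Mcts2 and Nnat islands as diamonds, islands of the maternal germline mark list as open circles and equality as a dashed line. In pESCs the Nnat island (29.2%) stands above the line with 13 circles, and the Mcts2 island (5.37%) lies close to it.

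Both inner-gene islands rose when ESCs, which have both parental genomes, were induced. From ESCs to ESC-PGCLCs the Mcts2 island rose by 36.4 points (2.26% ± 1.00 to 38.7% ± 0.06; log2 odds difference 4.30, 95% interval 3.67 to 4.94, limma adjusted p = 0.000108), and the Nnat island by 29.5 points (14.8% ± 0.51 to 44.3% ± 1.43; log2 odds difference 2.13, interval 1.59 to 2.67, adjusted p = 0.000791). Of the 17 regions 9 were called, all higher, where 13.7% of all 136848 regions and 6.17% of 13835 islands were called higher. They were 5 H13 regions (the Mcts2 island, the shore beside the last-exon island, introns, exons and 3′ UTR) and 4 Blcap regions (the Nnat island, the shore over Nnat, introns and promoter), with rises from 16.4 points at the H13 3′ UTR to 36.4 points. Without ESC replicate 1 the count was 12, with Blcap exons, the Blcap 5′ UTR and the shore on the 5′ side of Nnat added. After centring 7 were called, 4 of them higher, including the Mcts2 island at 23.7 points and the Nnat island at 16.8 points, and the other 3 were unmethylated regions called lower, at -12.9 to -12.6 points.

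From pESCs to pESC-PGCLCs 5 of 17 regions were called higher (background 8.91% of all regions and 5.23% of islands), all of them in H13. The Mcts2 island rose by 26.5 points (5.37% ± 0.89 to 31.9% ± 2.69; log2 odds difference 2.84, limma adjusted p = 0.000662), the introns by 24.1, the shore beside the last-exon island by 22.1, the exons by 16.2 and the 3′ UTR by 12.7 points. At the Nnat island the difference was 11.2 points (29.2% ± 5.30 to 40.4% ± 0.64), with an unadjusted p of 0.0172 and an adjusted p of 0.107 by limma, so it was not called here, and the other Blcap regions differed by -0.21 to 8.76 points. In the fit of all 12 libraries the Nnat island was called. After centring the Mcts2 island kept a difference of 16.5 points and was called, while that of the Nnat island was 1.12 points. The centred count was again 5, of which 3 were higher and 2, the Blcap-201 island and a shore of it, lower. An interaction term tested whether the rise differed between origins. It was called by limma at 0 of 17 regions, against a background of 0.0365% in either direction. An unadjusted p under 0.05 was found at 7 of the 17 and at 4053 of all 136848 regions. The difference between the rises, that of pESCs minus that of ESCs, was -18.4 points at the Nnat island (log2 odds interval -2.18 to -0.66, unadjusted p = 0.00302, adjusted p = 1) and -9.94 points at the Mcts2 island (interval -2.36 to -0.56, unadjusted p = 0.00614, adjusted p = 1).

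Islands of other genes with a maternal germline mark were counted in the same comparisons. From E9.5 to E12.5, 16 of 26 islands of the list were called lower and 0 higher, with a median of -16.6 points. From ESCs to ESC-PGCLCs 15 of 26 were called higher (median 18.97 points), and from pESCs to pESC-PGCLCs 4 of 26 (median 0.19 points). The interaction was called at 5 of the 26, all with a negative value, that is a change from pESCs to pESC-PGCLCs below that from ESCs to ESC-PGCLCs. Of the 5 islands of the sperm list, 1 was called lower from E9.5 to E12.5 and 1 higher from ESCs to ESC-PGCLCs. The list is described by these counts, and no test compared it with H13 or Blcap.

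The 6 neighbouring genes of each host gave a local comparison over 37 regions. Those of H13 were Defb36, Defb25, Rem1, Id1, Cox4i2 and Bcl2l1, and those of Blcap were Ghrh, Manbal, Src, Ctnnbl1, Vstm2l and Tti1. From E9.5 to E12.5, 15 of 37 were called lower, with a median of -5.15 points, against 13 of 17 and -20.7 points in the hosts. The neighbours were not matched to the hosts by starting level. Many of their regions were low at E9.5, such as the Id1 promoter at 2.30% and 3.23%, and could hardly fall by 10 points. Between pESCs and ESCs, 0 of 37 were called by limma and 1 had an unadjusted p under 0.05, the 5′ UTR of Src at 8.43 points. The median difference was 0.25 points in the neighbours, 1.12 in H13, 4.56 in Blcap and 15.9 in the entries of Nnat. From ESCs to ESC-PGCLCs 3 of 37 were called higher and 1 lower, and from pESCs to pESC-PGCLCs 1 higher and 1 lower.

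Islands outside the hosts with the nearest levels were sought among 1359 islands whose group means spanned at least 10 points, by the mean absolute difference over the 12 libraries. For the Mcts2 island they lay in Oprd1 (a mean difference of 1.96 points), in Snx32 and 1700020D05Rik (2.64), in Zbed3 (2.64), in Lima1 and Gm17058 (2.76) and in Ankrd13b (2.77). For the Nnat island they lay in Tle2 (4.00 points), in Jph3 and Gm20388 (4.07), in Rem1 (4.24), in Fut7 (4.56) and in Plagl1 (4.99). Rem1 is also the nearest of the neighbouring genes before H13, with its island at chr2:152634451-152634683. The Mcts2 and Nnat islands themselves differed from each other by a mean of 9.48 points, with a Pearson correlation of 0.94 over the 12 libraries, which share their library-wide levels. The 5 islands nearest to Mcts2 differed by -0.60 to 0.47 points between pESCs and ESCs. Of the 5 nearest to Nnat, 4 differed by -1.08 to 2.57 points, and the island of Plagl1, a gene of the maternal list, by 26.9 points. The choice used the ESC and pESC levels too, so it favoured islands with stem-cell levels near those of the Mcts2 or Nnat island. These differences are therefore no separate evidence.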

How the data were processed

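The authors deposited 1 table per library with each region's methylation as a fraction, printed here as a percentage. No read counts came with it, so depth is unknown and counting error could not be given. Per the labels, MspI-digested, bisulfite-treated DNA was sequenced in paired ends. The submitters' processing notes name Bismark 0.16.3, Bowtie2 and mm10, and the study's methods state that levels were corrected for non-conversion. The coverage minimum is not given in the sources used here. Because 100% of islands begin with CG when file starts are read as 0-based, island starts are printed 1-based, while shores are printed as deposited. Of 30073 gene identifiers, 30041 were found in GENCODE M21.

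The test was limma 3.58.1 (R 4.3.3) on the log2 odds of the level, with 0.01 added to both the methylated and the unmethylated fraction, and p-values were adjusted by Benjamini-Hochberg across every region in a fit. Separate fits were made of ESCs with pESCs, of PGCs with PGCLCs, and of stem cells with PGCLCs. Regions lacking a value in any library of the fit were left out. The method was also run on simulated shifts, larger in log2 odds than the Mcts2 and Nnat island differences from E9.5 to E12.5 PGCs. That run does not show how well smaller differences are found. Named regions were every entry of the hosts and inner genes, 3 neighbouring protein-coding genes on each side, and the 5 islands nearest in level. Members and lists were chosen with earlier results of these data known.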

Additional observations from a re-analysis of the deposited data

How the results depend on the processing

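Each comparison was recomputed with an offset of 0.1, with untransformed levels, with a fit of all 12 libraries, with each library centred on its median, with a replicate block, without repeat elements and without each library in turn. Centring lowered 5 counts of called regions: from 13 to 4 between E12.5 and E9.5 PGCs, from 12 to 1 and from 13 to 5 in ESC-PGCLCs and pESC-PGCLCs against E9.5 PGCs, from 1 to 0 in ESC-PGCLCs against E12.5 PGCs, and from 9 to 7 in ESC-PGCLCs against ESCs. Centring also turned the difference at the Mcts2 island between ESC-PGCLCs and E12.5 PGCs to -2.88 points and that at the Nnat island between pESC-PGCLCs and E12.5 PGCs to -1.25 points. Over all features, centring took the share of calls that were higher from 0.0705% to 72.8% between E12.5 and E9.5 PGCs, from 0.565% to 79.4% and from 0.314% to 76.3% in ESC-PGCLCs and pESC-PGCLCs against E9.5 PGCs, and from 93.8% to 9.97% and from 92.3% to 13.03% in the same cells against the stem cells they came from. The fit of all 12 libraries gave 9 called regions in ESC-PGCLCs and 11 in pESC-PGCLCs against E9.5 PGCs, 10 in ESC-PGCLCs against ESCs, with the shore near the H13 start added, and 6 in pESC-PGCLCs against pESCs, with the Nnat island added. Without single libraries the count in ESC-PGCLCs against E12.5 PGCs ran from 1 to 3, that in ESC-PGCLCs against E9.5 PGCs from 11 to 13, that in pESC-PGCLCs against E9.5 PGCs from 12 to 13 and that in ESC-PGCLCs against ESCs from 9 to 12. A lone remaining library was then assumed to vary like the other groups. The labels share replicate numbers across groups, but with 2 pairs nothing shows that they pair the samples (correlation of deviations 0.43 between ESCs and pESCs, -0.057 to 0.14 otherwise), and under the replicate block the count between E12.5 and E9.5 PGCs was 13 and no other call changed. The offset, untransformed levels and leaving out repeats changed no call. With 2 libraries a group and unknown depth, differences under 10 points were not called.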

Other observations

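The 3′ UTR entry of Blcap entered no comparison because it had a level in only 2 libraries, 47.5% in ESC replicate 2 and 60.9% in pESC replicate 1. Among the 13715 islands, 717 (5.23%) had a mean of at least 50% at E9.5, and 80 of these were under 5% in ESCs, as the Mcts2 island was. Of the 80, 74 were also under 10% in pESCs.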
